A study of Homo sapiens with 5 samples.

Results

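The receptors for interleukin 10, the type I interferons and interferon gamma are each built from a pair of chains, and the 6 genes for these chains, *IL10RA*, *IL10RB*, *IFNAR1*, *IFNAR2*, *IFNGR1* and *IFNGR2*, were followed in TF-1 cells with and without knockout of *MTSS1*. The genes were named as receptor chains, and they were chosen by their place in this family with the knockout against control fold changes of the same libraries already known. Their differences between the groups are therefore given as a description. Where a chain is said to pass or miss the thresholds, this places it in the fit and is no evidence for a difference. The 6 chains were among 27328 genes in the count table, and all 6 were among the 14391 genes with enough counts to be tested.

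Class II cytokine receptors have a ligand-binding chain with a long cytoplasmic tail and an accessory chain, each holding a Janus kinase, and ligand binding brings the chains together so that the kinases phosphorylate STAT transcription factors. IL10RB is the accessory chain of the IL-10 receptor and is shared with the receptors for IL-22, IL-26 and the type III interferons, whereas IL10RA, IFNAR1 with IFNAR2, and IFNGR1 with IFNGR2 serve a single kind of ligand each. In hematopoietic cells IL-10 is known for restraining inflammatory gene expression, and interferons for inducing antiviral and antigen presentation genes and for slowing growth.

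TF-1 is a human cell line established from an erythroleukemia, and the samples are labelled as AML cell line. The control group held 2 pools transduced with sgCtrl, an sgRNA against the *Renilla luciferase* gene, and the knockout group held 3 pools, made with sgMTSS1_1, sgMTSS1_2 and sgMTSS1_3, one sgRNA per pool. All 5 libraries came from pooled single-cell clones edited with Cas9 and grown logarithmically, so a pool is a mixture of a few clones and not the bulk line. Per the study's methods, the third sgCtrl pool and the sgMTSS1_4 pool had been set aside as outliers of their groups before this comparison, and they were not analysed here. The question was which genes differ in expression once *MTSS1*, which encodes a membrane-curving and actin-binding protein, is lost.

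The control libraries held 2849979 and 3408827 counts and the knockout libraries 8854899, 5442639 and 5801636, so every knockout library was deeper than both control libraries. *MTSS1* itself measured 204 and 87.9 CPM in control, where CPM is a count scaled to a library of 1e+06 counts, and 104, 139 and 49.9 CPM in knockout pools, with overlapping groups. A 3′ tag lies outside the first exon, which sgMTSS1_1 and sgMTSS1_2 cut, so this level does not check the knockout in those pools. The exon cut by sgMTSS1_3 was not determined here. The study's methods state that the clones pooled for each *MTSS1* sgRNA had a knockout by immunoblot, which measures the protein. All 8 TF-1 erythroid and myeloid progenitor markers were expressed, with a summed level of 576 to 578 CPM in control and 579 to 844 CPM in knockout pools. T cell, monocyte, and stromal and epithelial markers each summed to at most 5.22 CPM in any library. *CD3E*, *CD163*, *PDGFRB* and *MS4A1* were not found in the count table. Of all tested genes, 745 passed an adjusted p of 0.05 and an absolute log2-fold change of 1 in edgeR's quasi-likelihood test, which is 5.18%. The share was 4.17% for higher and 1.01% for lower expression in knockout pools. Nothing in the labels says that the clones of a group were derived independently of each other, so the p-values given for other genes measure the spread between these pools, which is the spread left after the outliers were set aside. At an unadjusted p below 0.05 were 23.3% of all tested genes.

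*IL10RB* and *IFNGR2* lie in one cluster on chromosome 21 and were the chains with the largest differences in opposite directions. Their promoter sequences are therefore shown, from 250 bases before to 50 bases after the annotated start, as RefSeq gives them on GRCh38.p14. Capitals mark each GC box, GGGCGG on either strand, and boxes that adjoin or overlap run together. The *IL10RB* window is chr21:33266117-33266416 and the *IFNGR2* window is chr21:33403163-33403462, both on the plus strand.
IL10RB: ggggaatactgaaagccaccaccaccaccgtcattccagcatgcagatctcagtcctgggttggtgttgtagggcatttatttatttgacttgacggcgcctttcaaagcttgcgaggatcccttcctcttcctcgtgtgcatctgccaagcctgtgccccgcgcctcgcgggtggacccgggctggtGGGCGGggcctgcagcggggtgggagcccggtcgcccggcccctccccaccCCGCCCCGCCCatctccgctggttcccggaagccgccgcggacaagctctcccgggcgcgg
IFNGR2: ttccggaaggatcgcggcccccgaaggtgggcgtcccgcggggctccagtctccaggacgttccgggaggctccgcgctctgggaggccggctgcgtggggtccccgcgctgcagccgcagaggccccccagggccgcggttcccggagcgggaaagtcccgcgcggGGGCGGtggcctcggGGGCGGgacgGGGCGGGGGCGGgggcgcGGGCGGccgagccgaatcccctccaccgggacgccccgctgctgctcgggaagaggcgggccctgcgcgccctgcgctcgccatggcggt

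The *IL10RB* window was 66.7% G or C and held 3 GC boxes. The *IFNGR2* window was 80% G or C and held 5 GC boxes, against a median of 58.7% G or C over 35116 RefSeq promoters of the same length. A GC box was found on either strand in 45.0% of those promoters. The letters CCGGAA, the core that ETS family factors bind, were counted on either strand. They occurred 1 time in the *IL10RB* window and 3 times in the *IFNGR2* window, and in 17.2% of all promoters. The opening ttccggaa of the *IFNGR2* window matches on both strands and was counted on each. The GAS element TTCNNNGAA, the palindrome bound by STAT dimers, occurred 1 time in the *IL10RB* window, where it covers the CCGGAA match. It occurred 0 times in the *IFNGR2* window, and in 7.66% of all promoters. Neither window held CCAAT (34.6% of all promoters), TATAAA (11.5%) or CACGTG (7.26%). These matches describe letters in the windows and say nothing of binding. Entries were found for 5 of the 6 chains, and *IFNAR2* had none in the table.

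*IL10RB* (ENSG00000243646, chr21:33266367-33311420, plus strand) was the chain with the lowest mean level in each group and the one with the largest difference. In neither control pool was it the lowest, with *IL10RA* at 4.06 CPM in the first and *IFNGR2* at 5.07 CPM in the second. *IL10RB* was counted 15 and 22 times in control, against 4, 7 and 4 times in the sgMTSS1_1, sgMTSS1_2 and sgMTSS1_3 pools. These counts correspond to 4.69 and 6.56 CPM in control and to 0.519, 1.26 and 0.696 CPM in knockout pools. Each knockout pool was thus below both control pools, an order that 19.2% of all tested genes showed, while 22.2% showed the reverse order. Control pools averaged 5.62 ± 1.32 CPM (SD, n = 2) and knockout pools 0.826 ± 0.389 CPM (SD, n = 3). The log2-fold change was -2.77 (SE 0.58), a 6.80-fold lower level. Among the 14391 tested genes, 28 had a lower log2-fold change. Of the 6 chains, 1, *IL10RB*, was past both thresholds, beside 5.18% of all tested genes in either direction and 1.01% toward lower levels, and nothing is read from this count because the chains were chosen with this contrast known. *IL10RB* reached the count filter of 1.84 CPM in both control pools and in 0 of the knockout pools, so it entered the fit through its control level alone.

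Counting intervals for *IL10RB* show how far its few counts could vary from counting alone, and nothing on the groups is read from them. The 95% Wilson intervals were 2.84 to 7.74 and 4.33 to 9.93 CPM in the control pools. In the knockout pools they were 0.202 to 1.33, 0.612 to 2.61 and 0.271 to 1.79 CPM. Such intervals cover counting error alone and not the spread between pools, and copies of one molecule made by PCR are not independent. An observed count of 0 would allow an expected count of up to 3, equal to 0.389 to 0.542 CPM in the knockout pools, and *IL10RB* in the sgMTSS1_1 and sgMTSS1_3 pools was little above that floor. Without the second sgCtrl pool, the sgMTSS1_1 pool or the sgMTSS1_3 pool, *IL10RB* was no longer past both thresholds, at log2-fold changes of -2.48, -2.50 and -2.64.

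The annotated end of *IL10RB* is shared with a read-through gene, *IFNAR2-IL10RB*, which joins its exons to those of its neighbour *IFNAR2* on the same strand. In GENCODE 44, 439 of the last 500 bases (87.8%) of the canonical *IL10RB* transcript also belong to exons of the read-through gene, and so do 1732 of its 8025 exon bases (21.6%). A 3′ tag from those bases fits both genes, and how such tags were counted is not given in the sources used here. The read-through gene was not found in the count table. Summing *IFNAR2* and *IL10RB* into a single feature, an alternative chosen after seeing the data, gave a log2-fold change of -0.66.

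Markers of B cells, which express *IL10RB* as most leukocytes do, were at low counts. *CD79A*, a signaling subunit of the B cell receptor, was counted 20 and 8 times in control and 4, 5 and 4 times in knockout pools. Each knockout pool was below both control pools in CPM, an order that 19.2% of all tested genes showed. Its levels were 6.25 and 2.38 CPM in control and 0.519, 0.903 and 0.696 CPM in knockout pools. The count filter of 1.84 CPM was reached in the control pools alone, so *CD79A* entered the fit through its control level. *PAX5*, the factor that defines the lineage, was counted at most 1 time in any library. Per the study's methods, the transduced TF-1 cells had been sorted for the vector's fluorescent marker and grown from single cells. The part of these counts in the *IL10RB* difference was not tested. In RNA from a pool, fewer cells expressing a gene and less RNA per cell cannot be told apart.

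*IL10RA* (ENSG00000110324, chr11:117986370-118003037, plus strand), the ligand-binding chain for IL-10, varied more within the groups than between them. Its levels were 4.06 and 14.9 CPM in control and 5.84, 16.4 and 5.74 CPM in knockout pools. The second sgCtrl pool and the sgMTSS1_2 pool were high, the other pools were low, and the groups overlapped. Means were 9.48 ± 7.66 CPM (SD, n = 2) and 9.34 ± 6.14 CPM (SD, n = 3), with a log2-fold change of -0.04 (SE 0.63). No other gene's exons overlap those of *IL10RA* in the annotation.

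**Figure D1:**
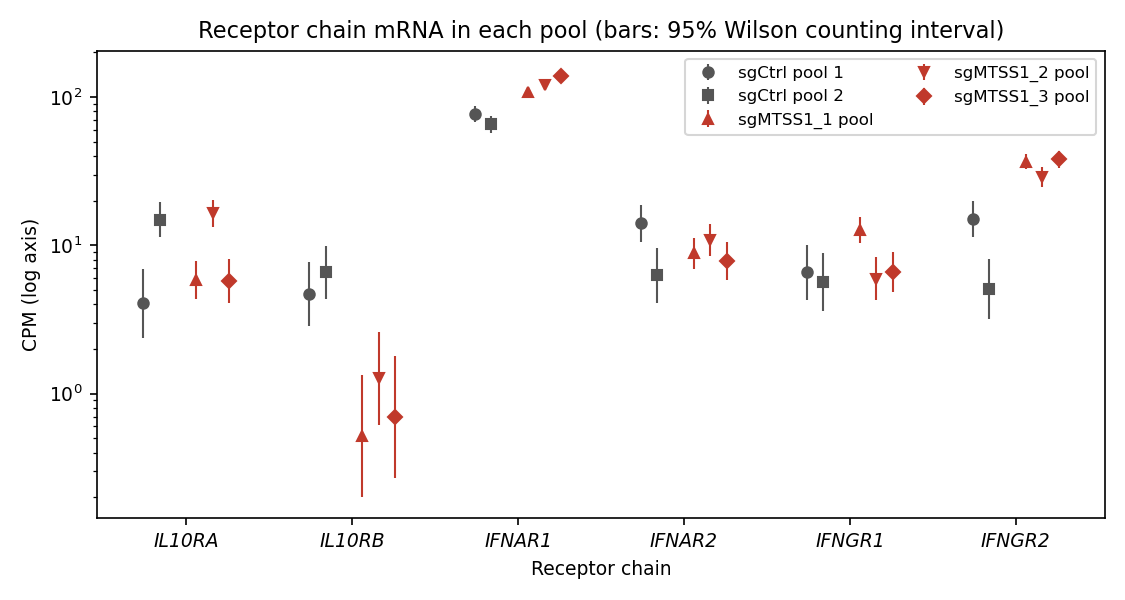
Level of each receptor chain in CPM (log axis) in the 2 sgCtrl pools (grey) and the 3 sgMTSS1 pools (red), with 95% Wilson counting intervals. *IL10RB* is at 4.69 and 6.56 CPM in control against 0.519 to 1.26 CPM in knockout pools, *IFNAR1* and *IFNGR2* lie above both control pools in each knockout pool, and the other 3 chains overlap.

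*IFNAR1* (ENSG00000142166, chr21:33324387-33359864, plus strand), the accessory chain for interferon alpha and beta and the docking site of the kinase TYK2, was the most abundant of the 6 in each library. It was at 77.2 and 65.6 CPM in control and at 108, 120 and 138 CPM in knockout pools. Each knockout pool was above both control pools. The means were 71.4 ± 8.25 CPM (SD, n = 2) and 122 ± 14.7 CPM (SD, n = 3), and the log2-fold change was 0.77 (SE 0.29), short of the threshold of 1. *IFNAR2* (ENSG00000159110, chr21:33205282-33265675, plus strand), the chain that binds interferon with high affinity and is associated with JAK1, was at 14.1 and 6.26 CPM in control and at 8.82, 10.8 and 7.83 CPM in knockout pools. The knockout pools lay between the control pools. The log2-fold change was -0.15 (SE 0.43). All of the last 500 bases of the canonical *IFNAR2* transcript (100%) lie across from exons of *IL10RB-DT*, a divergent noncoding RNA on the opposite strand. *IL10RB-DT* had 8 and 0 counts in control and 13, 1 and 9 counts in knockout pools, too few to be tested, and whether the counting used strand is not given in the sources used here.

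*IFNGR2* (ENSG00000159128, chr21:33403413-33479348, plus strand), the signaling chain for interferon gamma that carries JAK2, had the largest difference toward higher levels. It was counted 48 and 17 times in control and 282, 160 and 219 times in knockout pools, equal to 15.0 and 5.07 CPM against 36.6, 28.9 and 38.1 CPM. Each knockout pool was above both control pools, and the control pools differed more from each other than the knockout pools did. The means were 10.04 ± 7.03 CPM (SD, n = 2) and 34.5 ± 4.94 CPM (SD, n = 3), with a log2-fold change of 1.78 (SE 0.46) or a 3.45-fold higher level. A higher log2-fold change was seen for 825 tested genes. In the main fit *IFNGR2* did not pass the adjusted p threshold, and with DESeq2 and limma-voom it was past both thresholds. The size rested on the control pools: the log2-fold change was 2.78 without the first sgCtrl pool and 1.23 without the second. Without the sgMTSS1_1, sgMTSS1_2 or sgMTSS1_3 pool it was 1.73, 1.96 and 1.77, and after thinning to the smallest library 1.76. In none of these fits without a knockout pool or after thinning was *IFNGR2* past both thresholds.

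*IFNGR1* (ENSG00000027697, chr6:137197483-137219449, minus strand), the chain that binds interferon gamma, was at 6.57 and 5.66 CPM in control and at 12.7, 5.96 and 6.61 CPM in knockout pools. The sgMTSS1_1 pool was high, the other knockout pools lay close to the control pools, and the groups overlapped. The log2-fold change was 0.47 (SE 0.47).

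QuantSeq primes at the poly(A) tail, so CPM values count transcript ends and were compared between genes without division by transcript length. By mean level in control pools the order was *IFNAR1* (71.4 CPM), *IFNAR2* (10.2), *IFNGR2* (10.04), *IL10RA* (9.48), *IFNGR1* (6.11) and *IL10RB* (5.62), and apart from *IFNAR1* each chain overlapped its neighbours in this order. In knockout pools the order was *IFNAR1* (122 CPM), *IFNGR2* (34.5), *IL10RA* (9.34), *IFNAR2* (9.16), *IFNGR1* (8.43) and *IL10RB* (0.826). There the chains formed 4 bands that did not overlap, since *IFNAR1*, *IFNGR2* and *IL10RB* each stood apart from the other 3. The summed level of the 6 chains was 122 and 104 CPM in control and 173, 184 and 197 CPM in knockout pools. *IFNAR1* contributed 62.7 to 70% of the counts of all 6 chains in each library.

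Within a library the ratio of both chains of a receptor does not depend on the scaling. *IL10RA* was counted 0.867 and 2.27 times as often as *IL10RB* in control and 11.3, 13.0 and 8.25 times as often in knockout pools. *IFNGR2* was counted 2.29 and 0.895 times as often as *IFNGR1* in control and 2.88, 4.85 and 5.76 times as often in knockout pools. For *IFNAR1* over *IFNAR2* the ratios were 5.49 and 10.5 in control and 12.3, 11.1 and 17.6 in knockout pools. In the order given, the ratios of all 3 receptors were higher in each knockout pool than in either control pool. Nothing is read from this, because the chains were chosen with this contrast known. The closest approach was for *IFNAR1* over *IFNAR2*, at 10.5 in the second sgCtrl pool and 11.1 in the sgMTSS1_2 pool. The former rests on 21 *IFNAR2* counts. The shared direction depends on that order. The IL-10 receptor ratio sets the ligand-binding chain over the accessory chain, and the others set the accessory chain over the ligand-binding chain. The share of all gene pairs with separate groups was not computed. *IFNAR1* over *IFNGR2* was lower, at 5.15 and 12.9 in control and 2.96, 4.16 and 3.61 in knockout pools. Between cluster neighbours, *IFNAR2* over *IL10RB* was 3 and 0.955 in control and 17, 8.57 and 11.3 in knockout pools.

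**Figure D2:**
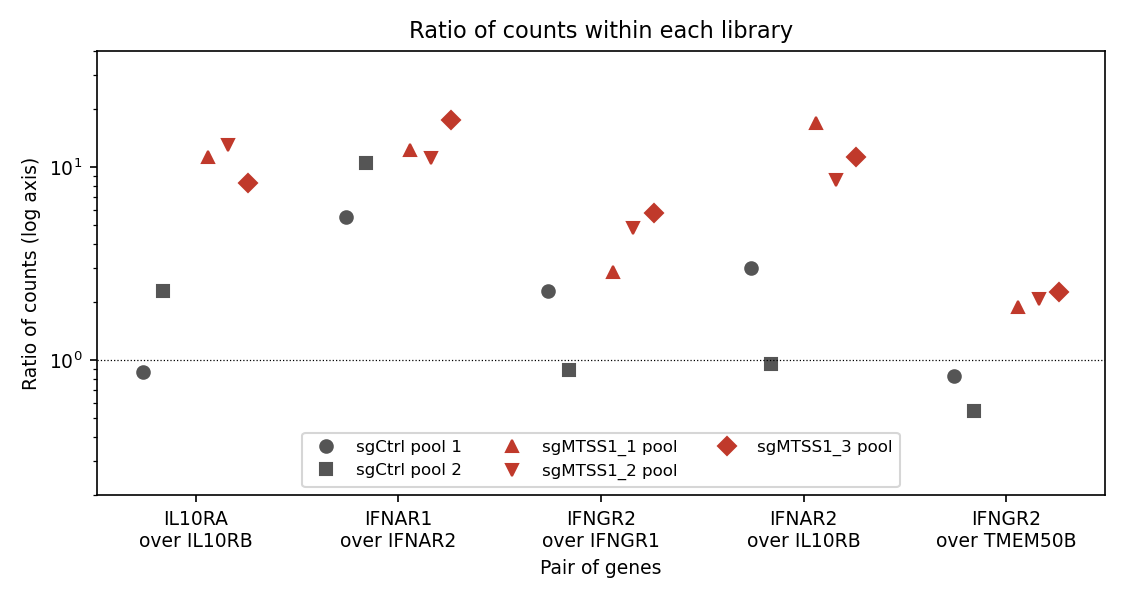
Ratio of counts within each library (log axis) for the chains of the 3 receptors and for 2 pairs of chromosome 21 neighbours, in the 2 sgCtrl pools (grey) and the 3 sgMTSS1 pools (red); the dotted line marks equal counts. *IL10RA* over *IL10RB* is 0.867 and 2.27 in control and 8.25 to 13.0 in knockout pools, and the other pairs are also higher in each knockout pool than in both control pools.

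The 4 chromosome 21 chains lie head to tail on the plus strand in the order *IFNAR2*, *IL10RB*, *IFNAR1* and *IFNGR2*, with log2-fold changes of -0.15, -2.77, 0.77 and 1.78 along the cluster. Their summed level was 111 and 83.4 CPM in control and 154, 161 and 184 CPM in knockout pools. *IL10RB* made up 4.23% and 7.86% of the counts of these 4 genes in control and 0.336%, 0.784% and 0.378% in knockout pools. *IFNGR2* made up 13.5% and 6.07% in control and 23.7%, 17.9% and 20.7% in knockout pools. *TMEM50B*, a membrane protein gene on the opposite strand, shares 380 bases (15.0%) of the exons of *IFNGR2* but 0 of the last 500 bases of either canonical transcript, and its log2-fold change was 0.29 (SE 0.39, adjusted p = 0.697, edgeR). *IFNGR2* over *TMEM50B* was 0.828 and 0.548 in control and 1.88, 2.08 and 2.26 in knockout pools. With both genes summed, an alternative chosen after seeing the data, the log2-fold change was 1.11.

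Around the cluster, 36 further genes start within 1 Mb of the start of *IL10RB*, and 26 of them were tested. Of these, 1 was called higher, beside 4.17% of all tested genes, and 0 lower. The gene was *ATP5PO*, which encodes a stalk subunit of mitochondrial ATP synthase. *ATP5PO* rose from 102 ± 4.09 CPM (SD, n = 2) to 785 ± 216 CPM (SD, n = 3), with a log2-fold change of 2.95 (SE 0.39, adjusted p = 0.00754, edgeR). The other 25 did not pass, 13 of the 26 were above and 13 below a log2-fold change of 0, and their median was -0.05, beside -0.03 over all tested genes.

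**Figure D3:**
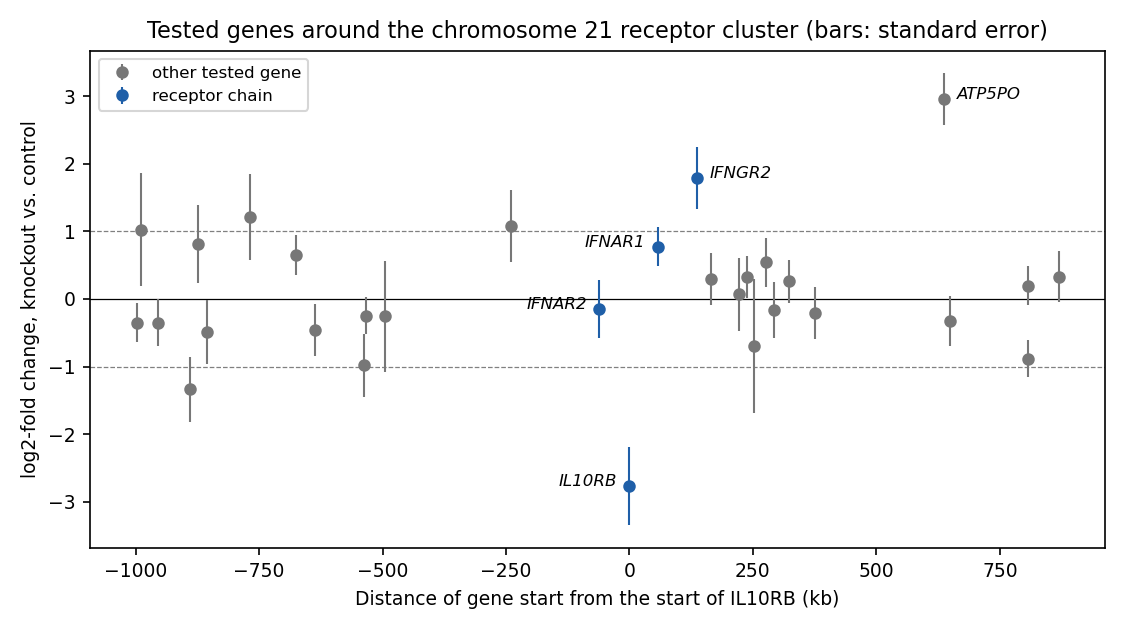
Log2-fold change between knockout and control pools (bars: SE) of tested genes against the distance of their start from that of *IL10RB* in kb; receptor chains are blue, other genes grey, and dashed lines mark -1 and 1. *IL10RB* is at -2.77 and *IFNGR2* at 1.78 with *IFNAR1* at 0.77 between them, and *ATP5PO* is at 2.95.

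Of the 6 other class II receptor genes, 1 was tested. *IL20RB*, the accessory chain for IL-19, IL-20 and IL-24, was at 1.88 and 0.596 CPM in control and at 3.37, 3.43 and 4.70 CPM in knockout pools, with a log2-fold change of 1.62 (SE 0.64, adjusted p = 0.169, edgeR). *IFNLR1*, the partner of *IL10RB* for type III interferons, had at most 3 counts in any library. *IL22RA1* and *IL22RA2* were not found in the count table. None of the 27 ligand genes, which covered the IL-10 family and the interferons, was tested. *IL19* and *IFNK* had at most 2 counts in any library, and the other 25 were not found in the count table.

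The kinases and STAT factors below the receptors showed no call by edgeR, with 0 of 11 tested genes past both thresholds and 1 at an unadjusted p below 0.05, against 23.3% of all tested genes. DESeq2 and limma-voom likewise called 0 of them. Their log2-fold changes were below 0 for 8 and above 0 for 3, with a median of -0.30. *JAK1*, the kinase used by all 3 receptors, was at 256 and 186 CPM in control and at 119, 159 and 132 CPM in knockout pools, each knockout pool below both control pools (log2-fold change -0.69, SE 0.30, adjusted p = 0.200, edgeR). *STAT3*, the main factor downstream of IL-10, had a log2-fold change of -0.62 (SE 0.40) with overlapping groups.

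Negative regulators of the pathway, phosphatases and SOCS and PIAS proteins among them, gave 0 calls of 14 tested genes, with 3 at an unadjusted p below 0.05, against the same background, and 0 calls by DESeq2 and limma-voom. Their median log2-fold change was 0.18. *PTPN1*, a phosphatase that acts on JAK2 and TYK2, was the most abundant, at 583 and 324 CPM in control and at 610, 752 and 797 CPM in knockout pools (log2-fold change 0.67, SE 0.36, adjusted p = 0.308, edgeR). Genes for receptor trafficking and turnover gave 0 calls of 16 by edgeR and 2 by DESeq2, with 7 at an unadjusted p below 0.05, against 23.3% of all tested genes, and a median log2-fold change of -0.14. *RACK1*, a scaffold protein and the most abundant of the list, was at 647 and 512 CPM in control and at 1272, 828 and 846 CPM in knockout pools (log2-fold change 0.76, SE 0.36, adjusted p = 0.234, edgeR). *AP2M1*, a subunit of the clathrin adaptor that takes up receptors from the surface, was at 709 and 869 CPM in control and at 267, 480 and 414 CPM in knockout pools (log2-fold change -1.03, SE 0.35, adjusted p = 0.114, edgeR). *CLTC*, the clathrin heavy chain, named after its values were seen, went the other way, at 154 and 86.1 CPM in control and at 234, 233 and 268 CPM in knockout pools (log2-fold change 1.03, SE 0.34, adjusted p = 0.107, edgeR).

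Among interferon-induced genes, 2 of 16 tested rose and 0 fell, beside 4.17% and 1.01% of all tested genes. At an unadjusted p below 0.05 were 8 of the 16, against 23.3% of all tested genes. *PSMB8*, an immunoproteasome subunit, was at 16.3 and 8.64 CPM in control and at 108, 46.6 and 38.6 CPM in knockout pools (log2-fold change 2.37, SE 0.53, adjusted p = 0.0364, edgeR). *BST2*, which tethers budding viruses to the cell, was at 117 and 155 CPM in control and at 443, 416 and 260 CPM in knockout pools (log2-fold change 1.46, SE 0.36, adjusted p = 0.0470, edgeR). The median of the 16 was 0.67, with 14 above and 2 below 0. The list held 30 genes, and 14 of these were not tested, so the median does not cover them. Untested genes with counts had at most 26 in any library. Of these, *RSAD2*, *XAF1* and *TAP1* were below both control pools in each knockout pool, and the rest overlapped. *IFITM3*, an antiviral membrane protein, was at 370 and 157 CPM in control and at 134, 147 and 133 CPM in knockout pools, each below both control pools (log2-fold change -0.93, adjusted p = 0.168, edgeR). The number of calls was 0 without the sgMTSS1_1 pool or without the sgMTSS1_2 pool, and 1 without the first sgCtrl pool or without the sgMTSS1_3 pool. Without the second sgCtrl pool, 1 gene was called higher, *BST2*, and 1 lower, *IFITM3*.

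In the other cytokine receptors, 1 of 18 tested genes rose and 0 fell, beside 4.17% and 1.01% of all tested genes, with a median log2-fold change of 0.12. The gene was *IL27RA*, whose product pairs with gp130 to bind IL-27. It was at 19.4 and 20.9 CPM in control and at 79.1, 67.7 and 82.3 CPM in knockout pools (log2-fold change 1.92, SE 0.31, adjusted p = 0.0131, edgeR), and the call was lost without the sgMTSS1_1 pool or the sgMTSS1_3 pool.

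**Figure D4:**
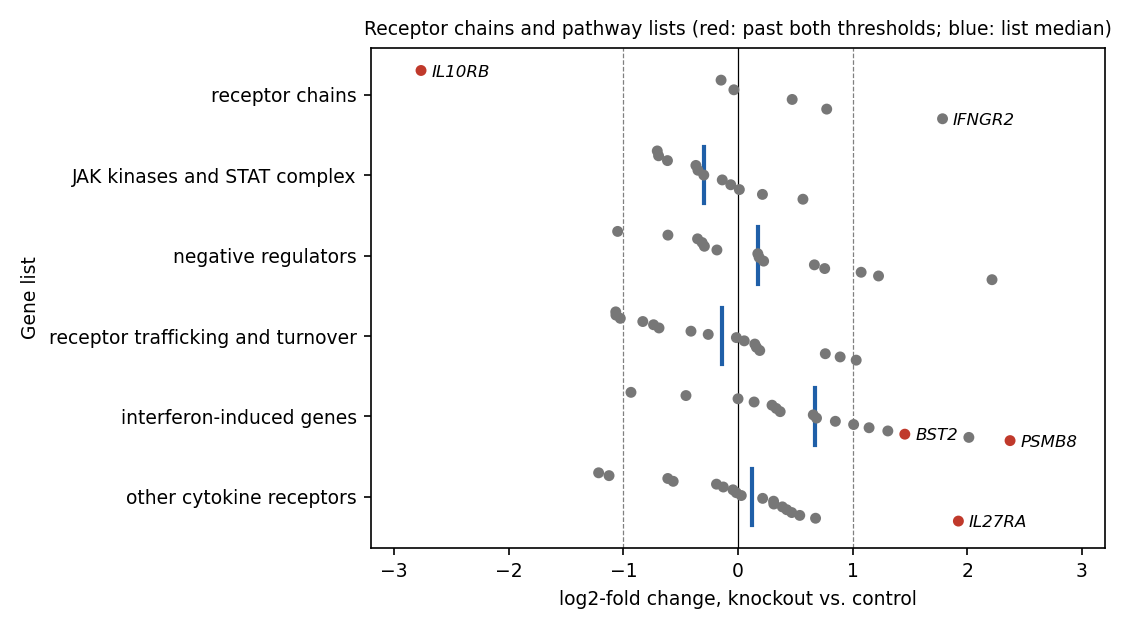
Log2-fold change between knockout and control pools of each tested gene in the receptor chains and 5 pathway lists; points are genes, red points passed both thresholds, blue bars are list medians and dashed lines mark -1 and 1. The medians lie between -0.30 for the kinases and STAT factors and 0.67 for interferon-induced genes, and *IL10RB* at -2.77 is the lowest value plotted.

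The genes whose pattern over the 5 libraries was most like that of *IL10RB*, measured as the root mean square difference of centred log2 CPM among 8624 genes with a mean of at least 10 CPM, were *NFKBIL1* (0.220), *ACP5* (0.257), the pseudogene *YBX1P6* (0.270), *TGFB1* (0.281) and *METRN* (0.2995). *TGFB1*, the cytokine TGF-beta 1, was at 174 and 171 CPM in control and at 26.5, 70.8 and 41.4 CPM in knockout pools. For *IFNGR2* the nearest were the mitochondrial pseudogene *MTCO3P22* (0.0895), *MRFAP1* (0.0964), *IFT27* (0.0995), *GAD1* (0.113) and *EPOP* (0.128). *GAD1*, an enzyme that makes GABA, was at 66.0 and 27.1 CPM in control and at 148, 122 and 173 CPM in knockout pools, low in the second sgCtrl pool as *IFNGR2* was. Tags of pseudogenes may stem from their parent genes, so these entries are uncertain.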

How the data were processed

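RNA-seq was performed on 5 TF-1 libraries, 2 control and 3 *MTSS1* knockout pools that remained after the authors set aside 2 outlier pools, prepared with a QuantSeq 3′ kit. The deposited values are raw counts per Ensembl gene. Per the labels and the study's methods, reads were aligned to GRCh38 with HISAT2 2.1.0 and those without a unique position removed; the counting program, its annotation and its use of strand are not given in the sources used here. The members and gene lists were chosen with earlier results of these data known. Genes were named as chains, overlapping or adjacent genes, list members past both thresholds, up to 4 abundant members per list, and the 5 nearest patterns.

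Counts were tested with edgeR 4.0.16 (TMM, at least 10 counts by filterByExpr, quasi-likelihood F test) with Benjamini-Hochberg adjustment over 14391 genes, and called at an adjusted p of 0.05 and an absolute log2-fold change of 1. CPM used TMM-scaled totals. Total counts were 2849979 to 8854899, and a floor of 3 counts equals 0.389 to 0.938 CPM. Exon overlaps were computed from GENCODE 44. 1 cell type marker is not reported here. The scripts were tested on simulated data. Alternatives used DESeq2 1.42.0, limma 3.58.1, other scalings, filters and library subsets. The p-values cover the spread between pools, which may be technical.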

Additional observations from a re-analysis of the deposited data

How the results depend on the processing

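The number of differentially expressed genes was 745, 1374 without a filter on low counts, 1286 with DESeq2 and 111 to 1349 when 1 library was left out, lowest without the sgMTSS1_1 pool and highest without the first sgCtrl pool. The number of receptor chains past both thresholds was 1. It was 2 without a filter, with DESeq2 and with limma-voom, where *IFNGR2* joined *IL10RB*, 0 after thinning to the smallest library, and 0 to 2 when 1 library was left out. The log2-fold change of *IL10RB* ranged from -3.38 after thinning to -2.48, and from -3.15 to -2.48 when 1 library was left out. A feature that summed *IL10RB* with *IFNAR2* had -0.66. A minimum of 10 counts in every library removes *IL10RB*, so it has no value there, and the chain past both thresholds was then *IFNGR2*. The log2-fold change of *IFNGR2* ranged from 1.23 to 2.78, and a feature that summed *IFNGR2* with *TMEM50B* had 1.11. *IFNAR1* stayed between 0.64 and 0.92 and *IFNGR1* between 0.03 and 0.71. *IL10RA* ranged from -0.70 to 1.21 and *IFNAR2* from -0.59 to 0.56, changing sign.

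Trafficking genes gave 2 calls with DESeq2 and 0 to 2 with 1 library left out, and negative regulators 0 to 1. Interferon-induced genes gave 1 call with DESeq2 size factors, with library size alone and after thinning, and 0 to 2 with 1 library left out. Other cytokine receptors gave 0 to 2 calls and chromosome 21 neighbours 1 to 2 with 1 library left out. The cause was not tested for any of these. The pool numbers are shared by only 2 pairs, whose differences over genes correlated at 0.170. A single value from 2 pairs cannot decide whether they share more than a number. With the replicate block, 1094 genes passed both thresholds, against 745 in the main fit, and 2 receptor chains did. Depth limits *IL10RB* most, with 4 to 7 counts per knockout library.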
